A study of Mus musculus with 3 samples.

Results

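Interferon-stimulated genes (ISGs) were examined across the tumor-infiltrating leukocytes (TILs) of 3 single-cell RNA-sequencing libraries. The list held 49 genes chosen by name, and 48 of them had a row among the 32285 genes of the count tables; *Mx1* was not analysed here. From what is known of their induction, 40 measured members were assigned to type I interferon, 7 to interferon gamma and 1, *Cxcl10*, to either. The assignment is a convention, since many of these genes respond to both interferons. Tumors were grown under the skin from MC38-Ova, a line that carries ovalbumin and derives from the mouse colon adenocarcinoma line MC38, after injection of 250000 cells into wild-type C57BL/6 mice carrying the Kaede transgene. Kaede is a green fluorescent protein that violet light turns red; tumors were illuminated on day 13 and taken on day 15. The libraries' titles name isotype control treatment for all of them. KG+ cells, which had entered the tumor after illumination, made the libraries Kaede-green 1 and Kaede-green 2, and KR+ cells, which were in the tumor at illumination, made the library Kaede-red. Cells had been sorted as live CD45+ TER119- Kaede+, leaving out CD11b+NK1.1- cells, so that most myeloid cells were removed before sequencing. The titles number the Kaede-green libraries as biological replicates but do not tie them to animals. The p-values between gates measure how far gate differences varied over the 3 libraries, Kaede-red included. That spread may be in part technical and also holds any difference between gates in the effect of color.

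Interferons are secreted proteins that turn on an antiviral and antigen-presenting program in the cells that sense them. Type I interferons bind the receptor chains encoded by *Ifnar1* and *Ifnar2*, and a complex that contains STAT2 and IRF9 then binds the interferon-stimulated response element (ISRE). Interferon gamma, which NK cells and T cells secrete, binds the chains encoded by *Ifngr1* and *Ifngr2*, and its signal reaches genes through the gamma-activated site (GAS); IRF1, made in turn, also binds ISRE-like elements. In tumors, interferon gamma induces chemokines and antigen presentation, and ISGs are a common record of either exposure.

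Promoter sequence is shown for a pair of type I members, *Isg15* and *Ifit1*, and a pair of gamma-induced members, *Igtp* and *Gbp7*, since these elements are where each interferon's signal reaches the gene. Each window is the 120 bases before the RefSeq start site (GRCm38.p6), written 5′ to 3′ on the gene's strand, with matches to GAAANNGAAA or its other strand TTTCNNTTTC (ISRE core) and to TTCNNNGAA (GAS) in capitals. The windows are chr4:156200819-156200938 on the minus strand for *Isg15*, which holds 3 overlapping ISRE matches, and chr19:34640769-34640888 on the plus strand for *Ifit1*, which holds 2 ISRE matches. They are chr11:58199436-58199555 on the plus strand for *Igtp*, with 1 GAS match followed by 1 ISRE match, and chr3:142530216-142530335 on the plus strand for *Gbp7*, with 2 GAS matches followed by 1 ISRE match.
Isg15: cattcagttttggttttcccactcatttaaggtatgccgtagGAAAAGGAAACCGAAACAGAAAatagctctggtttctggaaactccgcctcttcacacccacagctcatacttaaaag
Ifit1: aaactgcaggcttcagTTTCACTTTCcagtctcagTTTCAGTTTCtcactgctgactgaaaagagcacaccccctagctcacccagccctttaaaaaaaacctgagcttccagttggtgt
Igtp: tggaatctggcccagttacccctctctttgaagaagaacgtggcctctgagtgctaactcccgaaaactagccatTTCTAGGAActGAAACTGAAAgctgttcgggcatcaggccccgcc
Gbp7: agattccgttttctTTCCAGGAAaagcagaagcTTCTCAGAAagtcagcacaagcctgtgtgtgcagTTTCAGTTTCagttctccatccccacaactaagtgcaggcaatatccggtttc

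Windows from 250 bases before to 50 bases after the start were read, and a gene counted if any of its promoters in the RefSeq table matched. The ISRE core lay in 18 of 33 type I members with a promoter there (54.5%) and in 5 of 6 gamma-induced members (83.3%). It lay in 3.99% of all 27018 genes with a promoter. The GAS letters lay in 6 of the 33 type I members (18.2%), in 2 of the 6 gamma-induced members (33.3%) and in 9.55% of all these genes. Those 2 gamma-induced members were *Igtp* and *Gbp7*, the pair shown above, so their windows are not typical of the arm. *Ifi47*, *Irgm1*, *Gbp2* and *Gbp3* had no GAS match. The ISRE letters were thus found in the majority of members of each arm with a promoter in the table. A match is a description of letters and not of binding.

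The 3 libraries held 10498, 12327 and 11956 cell barcodes and 87193225, 129438292 and 175848894 unique molecular identifiers (UMIs), and any pair of libraries shared 20 to 36 barcodes. Cells in which 1000 to 6000 genes were detected, with a mitochondrial share below 7.5%, were assigned to gates by raw UMIs, and 21312 cells met 1 gate only. NK cells (8440) had at least 1 UMI of *Ncr1* and at most 1 of *Cd3e*, and CD8 T cells (9279) at least 2 of *Cd3e* and 1 each of *Cd8a* and *Cd8b1*. CD4 T cells (1055) had at least 2 of *Cd3e*, 1 of *Cd4* and 0 of *Foxp3*, and Treg (1763) at least 2 of *Cd3e* and 1 of *Foxp3*. γδ T cells (618) had at least 1 UMI each of *Cd3e* and *Cd163l1*, and myeloid cells (157) at least 5 of *Lyz2* and 3 of *Cst3*. A gate by raw UMIs depends on depth, and the CD4 T gate held Treg-marker RNA (*Il2ra*, *Ikzf2*, *Ctla4* and *Tnfrsf18* sum, 1375 to 2402 CPM against 4113 to 4938 CPM in Treg). The NK, Treg and γδ T lists each had their highest sum in their own gate in every library. So did the CD8 T list, but it holds *Cd8a* and *Cd8b1*, which define the gate, so its sum is no check of the gate. Of its other genes, *Trac* was at 710, 679 and 722 CPM in CD8 T cells and 1034, 989 and 1261 CPM in Treg. *Cd3d* was at 1092, 1133 and 1305 CPM in CD8 T cells and 864, 970 and 1049 CPM in Treg. The CD4 T list (*Cd4*, *Cd40lg*, *Trac* and *Cd3d*) summed to 1928 to 2357 CPM in CD4 T cells and 2012 to 2442 CPM in Treg, and the myeloid list to 856, 1639 and 3790 CPM in myeloid cells and 1490 to 1660 CPM in CD8 T cells, where it was mostly *Ly6c2*. Levels are CPM, UMIs of a gene per 1000000 UMIs summed over the cells of a gate in a library, given in the order Kaede-green 1, Kaede-green 2 and Kaede-red. In such sums, fewer expressing cells and less RNA per cell cannot be told apart, and RNA released from other cells adds a background to every gate.

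Among lymphoid gates, type I members as a group were lowest in NK cells and highest in CD4 T cells. Their summed level was 4903, 4504 and 2637 CPM in NK cells and 5458, 4962 and 3796 CPM in CD8 T cells. It was 9773, 8238 and 7228 CPM in CD4 T cells, so that the 3 CD4 T sums lay above every NK, CD8 T and Treg sum. Treg held 6255, 6491 and 6516 CPM and γδ T cells 7281, 6393 and 6410 CPM, and these ranges overlapped. Myeloid cells held 4669, 6161 and 17980 CPM, so the gate was the lowest in Kaede-green 1 and the highest in Kaede-red. By mean level over the libraries, 22 of the 40 type I members were highest in myeloid cells, 15 in CD4 T cells and 1 each in NK cells (*Ifi44*), Treg (*Isg20*) and γδ T cells (*Bst2*). The myeloid means lean on Kaede-red. *Isg15*, for example, ranked highest in myeloid cells but was at 320 CPM in those of Kaede-green 1, below every other gate. On the CPM scale 11 type I members lay above the mean of the lymphoid gates in each library. The lowest gate was NK for 24 of the 40. The shares of all genes with each gate highest or lowest were not counted, here or for the gamma-induced members.

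**Figure D1:**
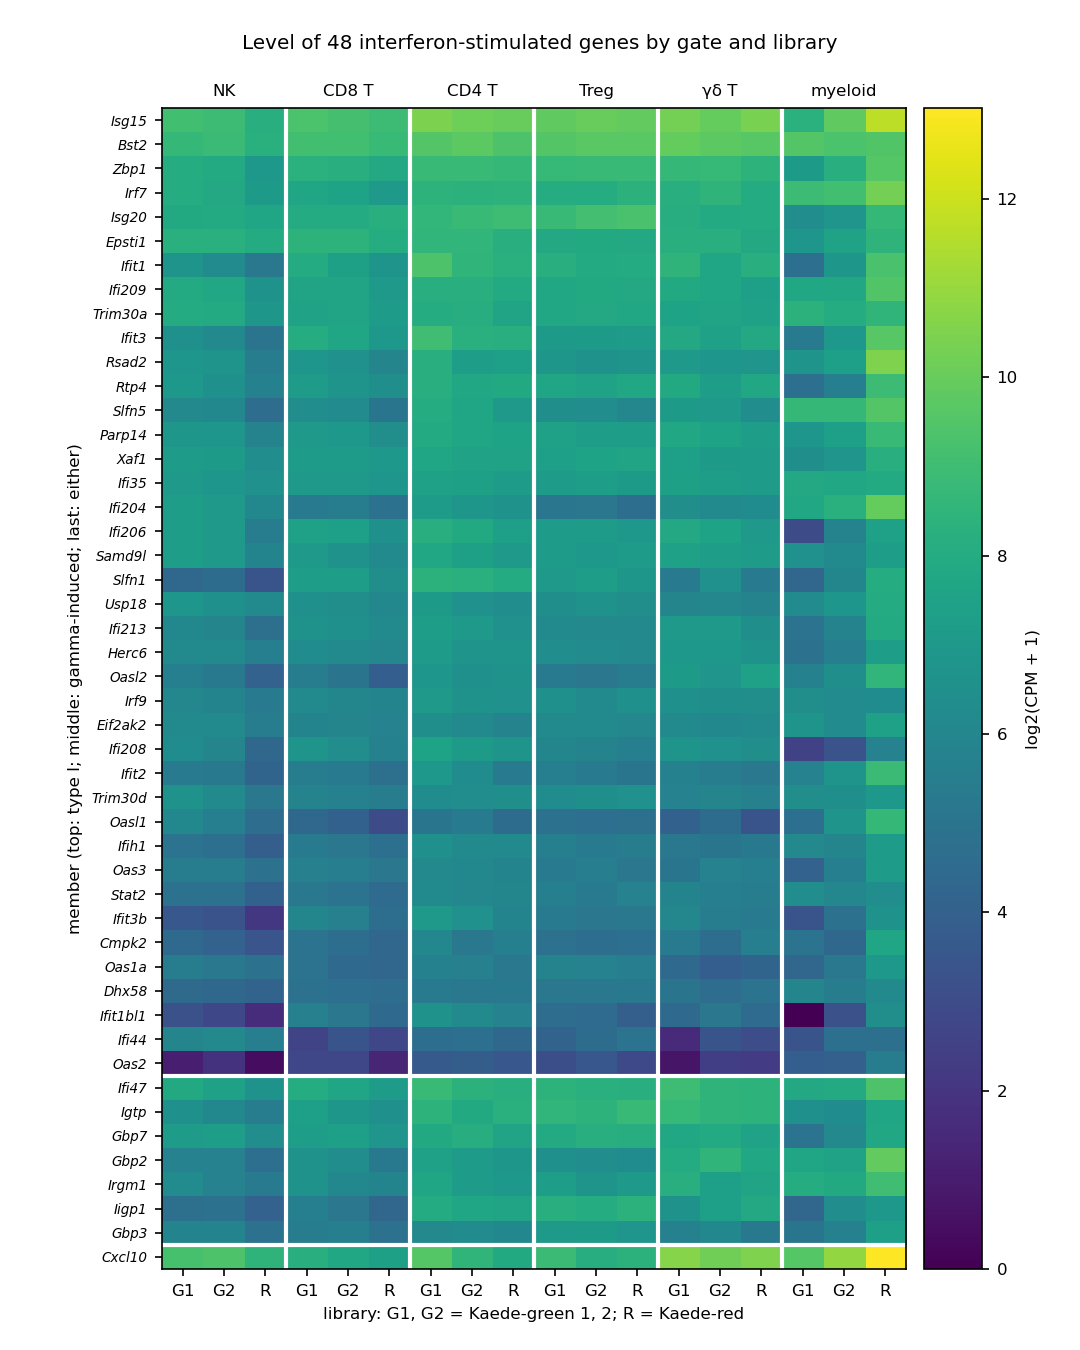
Level of each measured member, as log2(CPM + 1), in the 6 gates of each library (G1 and G2, Kaede-green 1 and 2; R, Kaede-red), with the 40 type I members on top, the 7 gamma-induced members in the middle and *Cxcl10* last. Kaede-red has the lowest level for all members in NK cells and for nearly all in CD8 T cells. The myeloid columns differ more, with Kaede-red the brightest for most members.

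Gamma-induced members had another order. Their summed level was 684, 592 and 338 CPM in NK cells and 866, 712 and 482 CPM in CD8 T cells. It was 1729, 1404 and 1304 CPM in CD4 T cells, 1627, 1539 and 1653 CPM in Treg and 1831, 1713 and 1541 CPM in γδ T cells, which overlapped. Myeloid cells again separated by library, at 882, 949 and 2879 CPM. Of the 7 members, 4 were highest by mean level in Treg, 2 in myeloid cells and 1 in γδ T cells, and 5 were lowest in NK cells. The log2 ratio of the type I sum over the gamma-induced sum, which spans 40 and 7 genes, was 2.91 ± 0.063 in NK cells (SD, n = 3 libraries), 2.81 ± 0.16 in CD8 T cells, 2.58 ± 0.16 in myeloid cells and 2.51 ± 0.042 in CD4 T cells. It was 2.00 ± 0.069 in Treg and 1.98 ± 0.079 in γδ T cells, below the other gates in each library. With the medians over members of log2(CPM + 1) in place of sums, type I minus gamma-induced was lowest in the same gates, at -1.59 in Treg and -1.15 in γδ T cells, and also below 0 in CD4 T cells (-0.67).

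**Figure D2:**
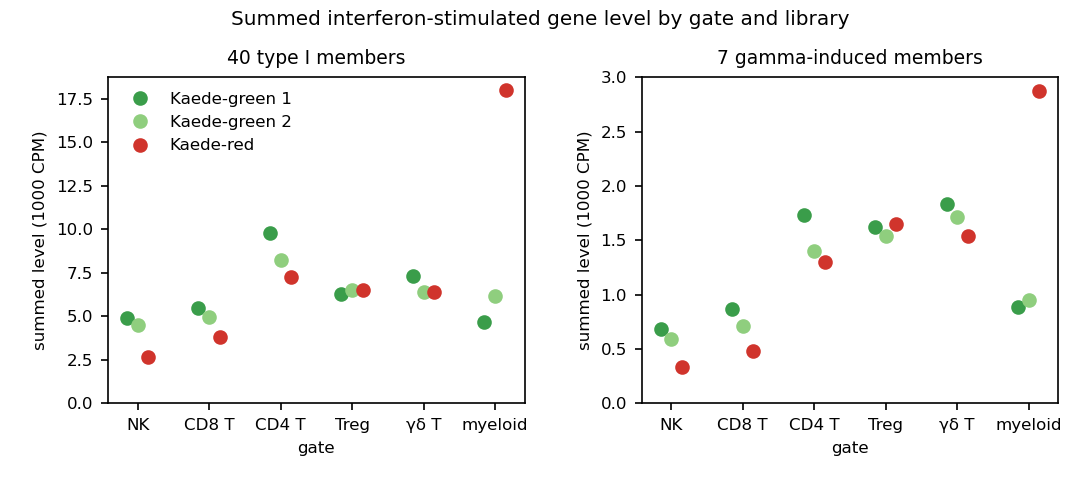
Summed level, in units of 1000 CPM, of the 40 type I members (left) and the 7 gamma-induced members (right) in each gate, with a dot per library. CD4 T cells lead the lymphoid gates for type I members, Treg and γδ T cells reach the CD4 T range for gamma-induced members, and the Kaede-red myeloid dot stands above all others.

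Among lymphoid gates, the mean levels of the 5 most abundant type I members were highest in CD4 T cells for *Zbp1* and *Irf7*, in γδ T cells for *Isg15* and *Bst2* and in Treg for *Isg20*. *Isg15*, a ubiquitin-like protein conjugated to other proteins, was at 545, 480 and 284 CPM in NK cells, 651, 575 and 493 CPM in CD8 T cells and 1423, 1138 and 1032 CPM in CD4 T cells. It was at 925, 1029 and 964 CPM in Treg, 1274, 987 and 1358 CPM in γδ T cells and 320, 920 and 3340 CPM in myeloid cells. Its CD4 T and γδ T ranges overlapped, and both lay above the NK and CD8 T ranges. *Bst2*, the membrane tether tetherin, was at 408, 473 and 311 CPM in NK cells, 534, 548 and 450 CPM in CD8 T cells, 730, 852 and 678 CPM in CD4 T cells, 752, 825 and 817 CPM in Treg, 985, 866 and 796 CPM in γδ T cells and 733, 645 and 719 CPM in myeloid cells. It varied the least between myeloid libraries among these members. *Zbp1*, a sensor of Z-form nucleic acid, was at 270, 246 and 120 CPM in NK cells, 316, 285 and 228 CPM in CD8 T cells, 460, 446 and 406 CPM in CD4 T cells, 416, 434 and 438 CPM in Treg, 413, 420 and 343 CPM in γδ T cells and 138, 299 and 759 CPM in myeloid cells. *Irf7*, the transcription factor that amplifies type I interferon production, was at 263, 230 and 138 CPM in NK cells, 205, 185 and 133 CPM in CD8 T cells, 338, 329 and 343 CPM in CD4 T cells, 271, 271 and 333 CPM in Treg, 299, 351 and 261 CPM in γδ T cells and 485, 545 and 1280 CPM in myeloid cells. Its myeloid values lay above all others in every library. *Isg20*, an exonuclease, was at 242, 245 and 198 CPM in NK cells, 254, 257 and 293 CPM in CD8 T cells, 392, 436 and 502 CPM in CD4 T cells, 439, 551 and 630 CPM in Treg, 274, 250 and 257 CPM in γδ T cells and 81.7, 109 and 413 CPM in myeloid cells. Its Treg value exceeded the CD4 T value in each library, although the ranges overlapped.

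Gamma-induced members encode guanosine triphosphatases of the immunity-related (IRG) and guanylate-binding (GBP) families, which act on the vacuoles of intracellular pathogens. *Ifi47*, of the IRG family, was at 236, 175 and 98.4 CPM in NK cells, 263, 197 and 139 CPM in CD8 T cells, 443, 332 and 298 CPM in CD4 T cells, 340, 307 and 297 CPM in Treg, 504, 358 and 338 CPM in γδ T cells and 231, 250 and 672 CPM in myeloid cells. *Igtp*, whose promoter is shown above, was at 91.7, 67.6 and 45.2 CPM in NK cells, 161, 116 and 92 CPM in CD8 T cells, 336, 242 and 308 CPM in CD4 T cells, 381, 347 and 432 CPM in Treg, 415, 356 and 344 CPM in γδ T cells and 91.0, 80.9 and 211 CPM in myeloid cells. NK cells were the lowest lymphoid gate for *Igtp* in each library, and Treg and γδ T values lay above all CD4 T values. *Gbp7* was at 143, 158 and 83.4 CPM in NK cells, 149, 164 and 109 CPM in CD8 T cells, 243, 272 and 193 CPM in CD4 T cells, 251, 293 and 276 CPM in Treg, 224, 245 and 179 CPM in γδ T cells and 30.3, 69.6 and 217 CPM in myeloid cells. *Cxcl10*, a chemokine for CXCR3+ T and NK cells, was at 601, 657 and 355 CPM in NK cells, 294, 225 and 168 CPM in CD8 T cells, 773, 366 and 239 CPM in CD4 T cells, 468, 272 and 333 CPM in Treg, 1588, 1185 and 1454 CPM in γδ T cells and 782, 1926 and 8322 CPM in myeloid cells. Its γδ T values exceeded those of each other lymphoid gate in every library. Reads of *Igtp* and *Irgm2*, *Ifi47* and *Olfr56*, *Irf9* and *Rnf31*, and *Rtp4* and *Gm45338* cannot be fully separated because their exons overlap on the same strand, and near-identical copies within the Ifit, Oas, HIN-200 (*Ifi204* to *Ifi213*), Trim30 and Gbp families make single members of these families uncertain.

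Gates were compared with edgeR's quasi-likelihood test on the 18 sums, with library as a block and Benjamini-Hochberg adjustment over 11201 genes. CD8 T cells had lower ISG levels than CD4 T cells. Of 48 members, 10 were lower at an adjusted p under 0.05 (7 type I and 3 gamma-induced) and 0 higher, against 7.72% of all genes lower and 4.98% higher. DESeq2 called 13 lower and 0 higher, against 11.8% and 7.12% of all genes. At an unadjusted p under 0.05 the counts were 20 and 0. The share of all genes at that unadjusted threshold was not counted in any comparison. The median log2 fold change was -0.84 over the members and -0.013 over all genes. On the CPM scale, 48 of 48 members were lower in CD8 T cells in each of the 3 libraries, against 37.0% of all genes. *Iigp1*, an IRG guanosine triphosphatase, was at 48.5, 34.9 and 18.5 CPM in CD8 T cells against 261, 199 and 197 CPM in CD4 T cells, with no overlap, and had the largest fold among the called members (log2 fold change -2.60, SE 0.43, adjusted p = 0.0011 by edgeR). The other named members were *Ifi44* (-1.74), a microtubule-associated antiproliferative protein, *Slfn5* (-1.61), *Ifi204* (-1.59), a DNA-sensing HIN-200 protein, and *Igtp* (-1.17). The remaining 5 were *Ifih1*, an RNA sensor, *Stat2*, *Irgm1*, *Irf9* and *Bst2*, of which *Stat2* and *Irf9* encode subunits of the complex that binds the ISRE.

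The spread of members between the myeloid sums was large and entered that test, so the 5 lymphoid gates were also fitted alone, over 11645 genes, after this had been seen. In that fit 40 of 48 members were lower in CD8 T than in CD4 T cells (32 type I, 7 of 7 gamma-induced and *Cxcl10*), against 12.4% of all genes, and 0 were higher, against 10.7%. Calls in the 6-gate fit depended on the libraries, with 2 lower without Kaede-green 1, 1 without Kaede-green 2 and 43 without Kaede-red. The median stayed between -0.92 and -0.68. The shares of all genes called in these fits are not given, so the counts have no background beside them. Markers of plasmacytoid dendritic cells (*Siglech*, *Ccr9*, *Cox6a2* and *Klk1*) summed to 38.8, 170 and 0.622 CPM in CD4 T cells and 4.73, 17.1 and 1.02 CPM in CD8 T cells. With cells holding any UMI of that list or of the B or mast cell lists left out, and lymphoid-gate cells with at least 2 UMIs of *Lyz2* as well, 11 members were lower. With cells that meet more than 1 gate counted in each, which places the same cells on both sides, 3 were lower and the median was -0.52.

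**Figure D3:**
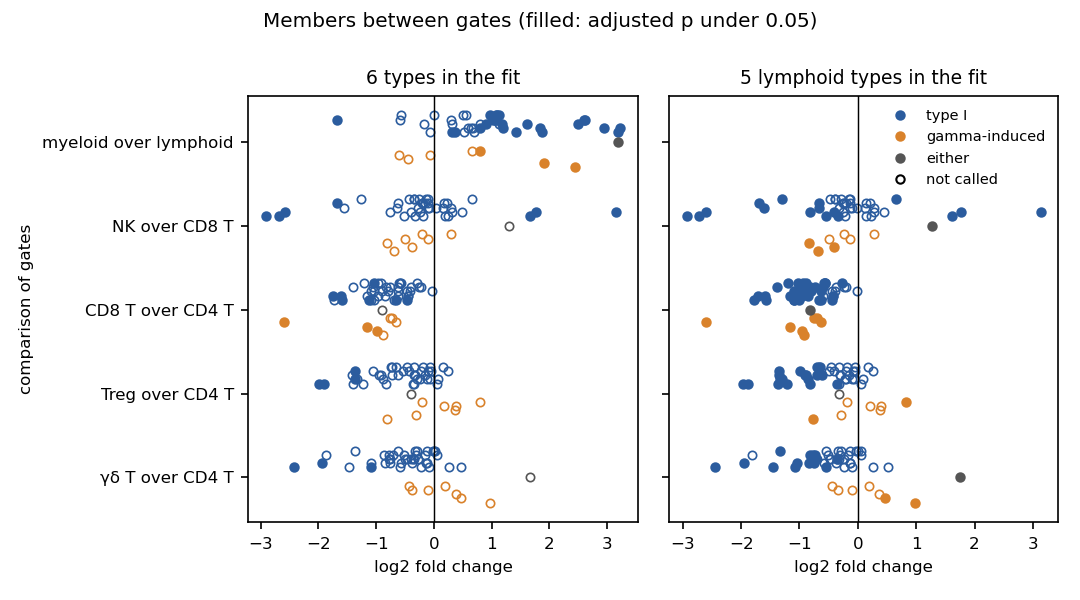
Log2 fold change of each member in 5 comparisons of gates, from the fit of 6 gates (left) and of the 5 lymphoid gates (right), with filled points at an adjusted p under 0.05. Nearly all members lie left of 0 for CD8 T over CD4 T cells, and few members are filled in the left panel outside the myeloid row. In that panel, gamma-induced members lie further right by median than type I members for Treg and γδ T over CD4 T cells. Single members of the arms overlap there.

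Most members were lower in NK than in CD8 T cells, and a few differed widely in either direction. In the 6-gate fit 4 members were lower in NK cells and 3 higher, against 10.1% and 9.52% of all genes, with a median of -0.20 over members and 0.017 over all genes, so the shares of members called did not exceed the background. On the CPM scale 32 members were lower in each library (26 type I and 6 gamma-induced), against 35.7% of all genes. *Slfn1*, a schlafen family regulator of T cell quiescence, was at 19.5, 23.4 and 9.38 CPM in NK cells against 156, 154 and 85.2 CPM in CD8 T cells (log2 fold change -2.91, SE 0.55, adjusted p = 0.0012 by edgeR). *Ifit1bl1* (-2.68) and *Ifit3b* (-2.58), copies of the RNA-binding Ifit family, and *Oas2* (-1.67), which makes the activator of RNase L, were also lower, and none of the 4 had overlapping ranges except *Oas2*, at 1.16, 2.76 and 0.369 CPM against 5.80, 5.80 and 1.65 CPM. *Ifi44* went the other way, at 59.2, 68.2 and 47.1 CPM in NK cells against 5.32, 9.38 and 5.90 CPM in CD8 T cells, with no overlap (3.16, SE 0.23, adjusted p = 1e-07). It was the single member whose level was highest in NK cells among all gates, including CD4 T cells (25, 26.1 and 19.9 CPM) and γδ T cells (1.99, 9.57 and 7.4 CPM). *Oasl1*, which limits translation of *Irf7*, and *Ifi204* were higher in NK cells by 1.77 and 1.66. In the lymphoid fit 15 members were lower and 5 higher, against 14.3% and 12.6% of all genes. Counts in the 6-gate fit were 3 lower and 1 higher without Kaede-green 1, 2 and 1 without Kaede-green 2, and 15 and 11 without Kaede-red. No share of all genes is given beside these counts.

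Type I and gamma-induced members differed in their medians between Treg and CD4 T cells, while few single members passed. Lower in Treg were 4 of 48 members, all type I, and 0 were higher, against 7.32% and 6.55% of all genes, so the share lower was close to the background. At an unadjusted p under 0.05, 12 were lower and 1 higher. DESeq2 called 3 lower and 0 higher, against 9.58% and 9.17% of all genes. The median was -0.45 over type I members, 0.17 over gamma-induced members and 0.0070 over all genes. *Ifi204* was at 33.9, 35.4 and 25.4 CPM in Treg against 144, 118 and 103 CPM in CD4 T cells (log2 fold change -1.99, SE 0.46, adjusted p = 0.010 by edgeR), and the ranges did not overlap. *Ifit1bl1* (-1.91), *Ifi208* (-1.37) and *Slfn5* (-1.37) were the other calls. In the lymphoid fit 19 members were lower, 18 type I and *Gbp2*, and 1 was higher, *Gbp3*, against 10.9% and 9.93% of all genes. *Gbp3* was at 131, 135 and 111 CPM in Treg and 68.2, 76.2 and 66.5 CPM in CD4 T cells (0.82, SE 0.13, adjusted p = 0.00068), while *Gbp2* was at 90.4, 83.9 and 78.5 CPM and 173, 141 and 119 CPM (-0.77, SE 0.20, adjusted p = 0.016), so that members of the GBP family differed in direction. On the CPM scale 29 members were lower in Treg in each library (27 type I), against 25.6% of all genes, and 7 were higher in each (3 type I and 4 of the 7 gamma-induced members), against 30.9% of all genes. The lower calls of the 6-gate fit fell to 0 without either Kaede-green library and were 28 without Kaede-red. With cells of more than 1 gate counted in each, 0 remained. The shares of all genes in these alternatives are not given.

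γδ T cells showed a like division of the arm medians against CD4 T cells, but it rested on other gamma-induced members than in Treg. By mean level, *Gbp3*, *Gbp7* and *Iigp1* were above CD4 T cells in Treg and below them in γδ T cells. *Ifi47*, *Irgm1* and *Gbp2* were below CD4 T cells in Treg and above them in γδ T cells, and *Igtp* was above in both. In the 6-gate fit 3 members, all type I, were lower and 0 higher, against 4.23% and 5.76% of all genes, which is again near the background. At an unadjusted p under 0.05, 9 were lower and 1 higher. DESeq2 called 4 lower and 0 higher, against 4.91% and 6.95% of all genes. The median was -0.43 over type I members, 0.19 over gamma-induced members and -0.0095 over all genes. *Slfn1* was at 39.8, 93.6 and 38.5 CPM in γδ T cells against 330, 308 and 253 CPM in CD4 T cells (log2 fold change -2.43, SE 0.59, adjusted p = 0.014 by edgeR), and *Ifi44* (-1.95) and *Ifih1* (-1.10) were the other calls. In the lymphoid fit 14 type I members were lower, against 5.87% of all genes, and *Cxcl10* (1.76, SE 0.25, adjusted p = 0.00025), *Gbp2* (0.97) and *Irgm1* (0.47) were higher, against 7.40% of all genes. *Gbp2* was at 254, 360 and 220 CPM in γδ T cells, above the CD4 T range, and so moved opposite to its direction in Treg. On the CPM scale 34 members were lower in each library (32 type I), against 24.9% of all genes. The lower calls of the 6-gate fit were 0 without Kaede-green 1, 1 without Kaede-green 2 and 17 without Kaede-red. They were 0 with cells of more than 1 gate counted in each. Here too the shares of all genes are not given. Whether Treg and γδ T cells shifted the balance of the arms by unlike amounts was not tested.

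Myeloid cells were compared with the mean of the 5 lymphoid gates. Higher were 27 of 48 members (23 type I, 3 gamma-induced and *Cxcl10*), against 21.6% of all genes, and 1, *Ifi208*, was lower, against 22.3%; the median was 0.85 over members and -0.14 over all genes. That comparison rested on Kaede-red, whose myeloid gate held 37 cells against 28 and 92 in the Kaede-green libraries. Without it 17 members were higher and 14 lower, against 22.1% and 20.1% of all genes, and the median was 0.14. On the CPM scale 14 members were higher in each library, against 17.2% of all genes. The gate also differed in its cells, since *Lyz2* was at 737, 2098 and 11811 CPM, *Ly6c2* at 422, 612 and 2411 CPM, *Csf1r* at 39.7, 83.9 and 259 CPM and *Cst3* at 14830, 13661 and 5527 CPM. *C1qa*, a macrophage gene, was at 0 (which allows up to 7.0), 282 and 72.8 CPM, and the part of these differences in the member levels was not tested.

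Among myeloid calls, *Oasl1* had the largest fold (log2 fold change 3.22, SE 0.49, adjusted p = 6e-05 by edgeR, and 1.85 without Kaede-red). It was at 25.7, 106 and 410 CPM in myeloid cells. The first of these lies under NK (66.0 CPM), CD4 T (32.4 CPM) and Treg (28.1 CPM) cells of Kaede-green 1. It lies above CD8 T (19.3 CPM) and γδ T cells (15.3 CPM) of that library. *Ifi204* was at 224, 304 and 994 CPM (3.19; 2.11 without Kaede-red), and *Slfn5* at 406, 412 and 752 CPM (2.94; 2.14 without Kaede-red), so that both were above every lymphoid gate in each library. *Cxcl10* was higher by 3.19 (1.65 without Kaede-red), although its level in Kaede-green 1 lay under that of γδ T cells. *Oas2* was at 14.0, 14.9 and 43.7 CPM (2.61). *Ifi208*, a HIN-200 gene, was at 4.67, 8.92 and 54.6 CPM (-1.68, SE 0.52, adjusted p = 0.016; -3.18 without Kaede-red), so that in the Kaede-green libraries it was under every lymphoid value. The Ifit genes turned with the library, as *Ifit1* was at 25.7, 118 and 614 CPM in myeloid cells and *Rsad2*, the antiviral enzyme viperin, at 105, 161 and 1437 CPM.

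Genes that make, sense or limit interferon were read from a list of 88 pathway genes, of which 82 had a row and 70 passed the filter. *Ifng* was at 224, 238 and 69.1 CPM in NK cells, 225, 276 and 214 CPM in CD8 T cells and 156, 79.3 and 152 CPM in CD4 T cells. It was at 29.1, 36.0 and 18.8 CPM in Treg, 19.3, 37.2 and 10.4 CPM in γδ T cells and 0, 8.33 and 0 CPM in myeloid cells, where a count of 0 allows up to 7.0 and 5.46 CPM. CD8 T cells held the most *Ifng* in Kaede-green 2 and Kaede-red and were level with NK cells in Kaede-green 1, and Kaede-red NK cells held less than Kaede-red CD4 T cells. *Ifng* was lower in Treg than in CD4 T cells (log2 fold change -2.33, SE 0.40, adjusted p = 0.0015 by edgeR) and in γδ T than in CD4 T cells (-2.70, SE 0.46, adjusted p = 0.0012). Type I ligand genes *Ifna1*, *Ifna2*, *Ifna4*, *Ifna5* and *Ifne* had 0 UMIs in every gate, which allows up to 0.0108 CPM over the 18 sums together, and *Ifnb1* had 1 UMI, in Kaede-red Treg (0.143 CPM). *Ifnk*, another type I ligand, had 3 UMIs in NK cells (0, 0.0718 and 0.0161 CPM) and 1 in Kaede-red CD8 T cells. Type I ligand transcripts in the gated cells were thus limited to single UMIs at this depth, and cells outside the sort were not measured.

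Receptor genes differed most in the signaling chain of the gamma receptor. *Ifngr2* was at 1.36, 2.76 and 0.546 CPM in NK cells, 7.94, 3.73 and 1.40 CPM in CD8 T cells and 16.2, 16.3 and 14.3 CPM in CD4 T cells. It was at 11.9, 7.86 and 8.89 CPM in Treg, 72.4, 87.2 and 99.2 CPM in γδ T cells and 105, 76.1 and 131 CPM in myeloid cells. No γδ T value overlapped another lymphoid gate, and the log2 fold change over CD4 T cells was 2.57 (SE 0.52, adjusted p = 0.0041 by edgeR), and that of CD8 T over CD4 T cells was -1.88 (SE 0.53, adjusted p = 0.030). *Ifngr1*, the ligand-binding chain, was at 1223, 1037 and 525 CPM in NK cells and 296, 248 and 219 CPM in myeloid cells. In the other gates it ranged from 536 CPM in CD8 T cells to 1017 CPM in CD4 T cells, both of Kaede-red. *Ifnar1* ranged from 52.8 CPM in Kaede-red NK cells to 114 CPM in Kaede-green 2 CD4 T cells. *Ifnar2* was at 156, 149 and 224 CPM in myeloid cells (1.83, SE 0.14, adjusted p = 4.3e-08) and between 33.2 and 79.6 CPM in lymphoid gates.

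Downstream, *Irf1*, a transcription factor induced by interferon gamma, was at 324, 229 and 546 CPM in myeloid cells and ranged from 68.1 CPM in NK cells to 305 CPM in γδ T cells. *Socs1*, an inhibitor of the receptor kinases, ranged from 90.7 CPM in Treg to 322 CPM in γδ T cells and passed in 0 of the 5 comparisons.

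Of the 70 pathway genes tested, 34 were higher and 12 lower in myeloid than in lymphoid gates, 9 and 7 in NK than in CD8 T cells, 3 and 15 in CD8 T than in CD4 T cells, 1 and 5 in Treg than in CD4 T cells and 8 and 10 in γδ T than in CD4 T cells. Over all genes the shares higher and lower were 21.6% and 22.3%, 9.52% and 10.1%, 4.98% and 7.72%, 6.55% and 7.32%, and 5.76% and 4.23% in the same order, so the NK counts and the lower Treg count were near the background. The largest myeloid changes were in *Cxcl9*, another CXCR3 ligand induced by interferon gamma (log2 fold change 8.18), *Ifi205* (7.83) and *Trim30b* (6.07) upward, and in *Ifng* (-3.88), *Ms4a4b* (-3.71) and *Gbp6* (-2.95) downward. NK cells had less *Ifi27l2a* (-3.30), *Tgtp1* (-1.57) and *Gbp6* (-1.20) than CD8 T cells, and more *Irf8* (1.49), *Tdrd7* (1.13) and *Irf5* (1.13). CD8 T cells had less *Gm4951* (-3.55), *Phf11d* (-2.30) and *Ifngr2* than CD4 T cells, and more *Ptpn6* (1.53), which encodes the phosphatase SHP-1, *Irf8* (1.29) and *Ifi27* (0.65). Treg had less *Ifng*, *Ms4a4b* (-1.30) and *Tor3a* (-1.09) than CD4 T cells and more *Ciita* (2.42), the master regulator of MHC class II. γδ T cells had less *Ifi27l2a* (-2.94), *Ifng* and *Ifi211* (-1.57) and more *Cxcl9* (4.97), *Ifngr2* and *Tgtp1* (1.54), and *Cxcl9* in that gate was at 56.4, 43.6 and 6.91 CPM. *Ifi27l2a*, a type I target outside the member list, ranged among lymphoid gates from 168 CPM in Kaede-red NK cells to 10836 CPM in Kaede-red Treg.

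Levels were then compared by Kaede color, within a gate. With a single Kaede-red library no test was possible, and a member was called when its Kaede-red CPM differed more than 1.5-fold from both Kaede-green libraries in the same direction and by more than these differed from each other. In NK cells 37 of 48 members were lower in KR+ cells (31 type I, 5 gamma-induced and *Cxcl10*) and 0 higher, against 14.7% of all genes lower and 5.64% higher. All 48 members lay below both Kaede-green libraries, and the median log2 ratio was -0.99 over members and -0.15 over all genes. The share of all genes below or above both Kaede-green libraries was not counted in any gate, so such counts of members have no background beside them. The largest log2 ratios were those of *Oas2* (-2.27), *Ifi208* (-1.77) and *Ifit1bl1* (-1.70), the last at 8.51, 6.03 and 2.2 CPM. *Oas2* was low in all libraries, at 1.16, 2.76 and 0.369 CPM. Members within 1.5-fold of a Kaede-green library included *Epsti1* (-0.28), *Isg20* (-0.30) and *Ifi35* (-0.32), which are type I members, and *Igtp* (-0.80) and *Irgm1* (-0.71). The log2 ratio of the type I sum in Kaede-red was -0.89 (exact Poisson 95% interval -0.91 to -0.88) and -0.77 (-0.78 to -0.76) against the Kaede-green libraries, which differed from each other by -0.12, and the intervals cover counting error only. Kaede-red NK cells were also the deepest, with a median of 17228 UMIs against 6130 and 8168, and the part of depth was not tested. At a fixed 2000 UMIs per cell the mean number of type I UMIs was 10.9, 10.3 and 6.25.

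CD8 T cells showed the same direction in fewer members. Lower in KR+ cells were 14 members (12 type I and 2 gamma-induced), against 6.53% of all genes, and 0 were higher, against 4.32%. Of 48 members 46 lay below both Kaede-green libraries and 1 above, with a median log2 ratio of -0.56 over members and 0.0025 over all genes. The largest were *Oas2* (-1.81), *Oasl2* (-1.42), at 43.4, 30.8 and 13.6 CPM, and *Oasl1* (-1.33), at 19.3, 15.4 and 6.84 CPM. Of gamma-induced members, *Gbp2* (-1.29) and *Iigp1* (-1.15) were called. The count was 28 without Kaede-green 2 and 18 without Kaede-green 1, when a ratio to a single library is enough. The share of all genes is not given for either count. The log2 ratio of the gamma-induced sum was -0.85 (exact Poisson 95% interval -0.87 to -0.82) and -0.56 (-0.59 to -0.54). Median depth was 14066 UMIs per cell in Kaede-red and 8819 and 10369 in the Kaede-green libraries.

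In CD4 T cells 3 type I members were lower in KR+ cells and 0 higher, against 3.72% and 4.48% of all genes, so the share of members was close to the background. They were *Ifit2* (-1.21), at 123, 78.8 and 42.3 CPM, *Ifit3b* (-0.93) and *Slfn5* (-0.93). Below both Kaede-green libraries lay 38 members, and the median was -0.34 over members and 0.038 over all genes. The contents of the CD4 T gate also differed by library. In it the Treg-marker list summed to 1375, 1578 and 2402 CPM and the plasmacytoid dendritic cell list to 38.8, 170 and 0.622 CPM. The part of these differences in the color ratios was not tested. Counts were 5 without Kaede-green 1, 15 without Kaede-green 2 and 19 with cells of more than 1 gate kept, with no share of all genes beside them. In Treg 1 member was lower, *Ifit1bl1* (-0.67), and 0 higher, against 2.22% and 2.45% of all genes. Of 48 members 18 lay below both Kaede-green libraries and 13 above, and the median was -0.032 over members and 0.041 over all genes, so members lay on both sides in Treg. Without Kaede-green 1, 2 Treg members were lower. For γδ T cells only the sums were read, and the log2 ratio of the type I sum in Kaede-red was -0.18 against Kaede-green 1 (-0.22 to -0.15) and 0.0039 against Kaede-green 2 (-0.040 to 0.048). Median depth was 5772.5, 7008 and 5972 UMIs per cell in CD4 T cells. It was 9405, 10158.5 and 7037 in Treg and 5951.5, 6396 and 5883 in γδ T cells. Kaede-red was thus not the deepest library in these gates, unlike in NK and CD8 T cells. The part of depth in the color ratios was not tested in any gate, and neither were differences between gates in the color ratio.

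**Figure D4:**
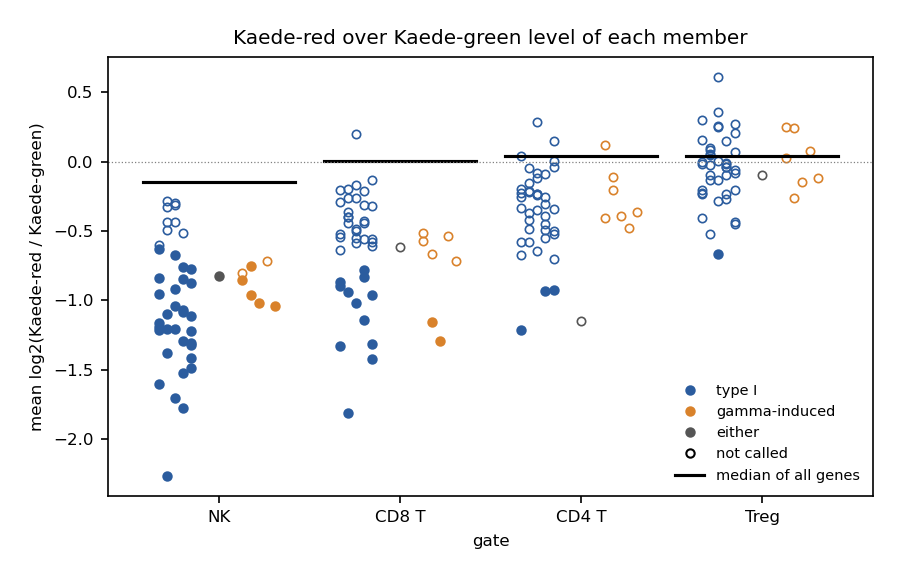
Mean log2 ratio of Kaede-red over the Kaede-green libraries for each member in 4 gates, with filled points for members called by the 1.5-fold rule and a bar at the median of all genes. Points lie below the bar for all members in NK cells, for nearly all in CD8 T cells and around the bar in Treg.

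The members were unevenly spread over the cells of a gate. After thinning each cell to 2000 UMIs, which left out 4 shallower cells, the mean number of type I UMIs was 14.3, 12.2 and 9.44 in CD8 T cells, 21.7, 18.7 and 16.7 in CD4 T cells, 15.2, 15.6 and 14.6 in Treg and 15.5, 13.0 and 14.1 in γδ T cells. Myeloid cells held 8.89, 12.1 and 36.9. The 10% of lymphoid cells with the most type I UMIs held 30.8% to 39.5% of them in each gate and library. The same share of myeloid cells held 35.7%, 29.7% and 23.6%. In Kaede-red myeloid cells the 10th percentile was 14.6 UMIs and the median 28, above the median of every other gate and library. The variance over the mean of UMIs was 4.04 to 23.9 for *Cxcl10*, the highest value in γδ T cells of Kaede-red. The median over type I members was 1.15 to 1.56 and the median over all genes 0.984 to 1.06. Genes with a mean of at least 0.02 UMIs per thinned cell entered these medians, and all genes were not matched to the members by level. The shares held by the top 10% of cells have no other set of genes beside them. Across cells, the type I and gamma-induced UMIs of a cell had a Pearson correlation of 0.57 to 0.76 in NK, CD8 T, CD4 T and Treg cells of each library and of 0.37 to 0.50 in γδ T cells, as a description over 127 to 3945 cells that share a library and a fixed depth. By rank (Spearman) the γδ T values, 0.42 to 0.44, lay within the range of the other lymphoid gates. That range ran from 0.36 in Kaede-red NK cells to 0.66 in Kaede-green 1 CD4 T cells.

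**Figure D5:**
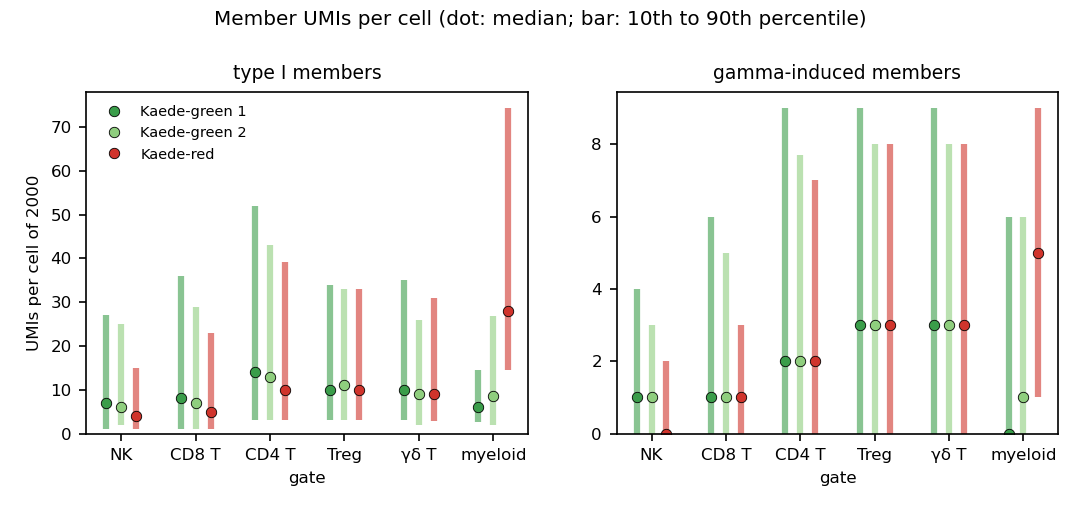
UMIs per cell of type I members (left) and gamma-induced members (right) in cells thinned to 2000 UMIs, with the median as a dot and the 10th to 90th percentile as a bar, by gate and library. Medians of type I members are highest in Kaede-red myeloid cells (28 UMIs), and Kaede-red NK cells have a lower median (4 UMIs) than the Kaede-green NK cells (7 and 6 UMIs).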

How the data were processed

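Single-cell 3' RNA libraries of KG+ TILs (2) and KR+ TILs (1) were used. The deposited matrices hold raw UMI counts, made by the authors with Cell Ranger on mm10 and limited to the barcodes it called as cells; the submitters' processing notes name version 6.1.2 and the file header 6.0.1. The annotation release used for counting is not given in the sources used here. The counts were used as deposited, and 0 columns were without a sample.

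The members, gene lists and comparisons were chosen with earlier results of these data known. As in the study's methods, a cell needed 1000 to 6000 detected genes and a mitochondrial share below 7.5%. The study scored doublets with Scrublet; here no caller was run, cells meeting more than 1 gate (215, 415 and 334 per library) or none (3902, 3558 and 2207) were left out, and an alternative left out cells with markers of other lineages. UMIs were summed per gate and library and tested with edgeR 4.0.16 (R 4.3.3), TMM factors, its filter on low counts, and library as a block. Gates of a library come from the same tube, which sets the pairing; the deviations of same-library sums from gate means correlated at 0.0322 to 0.703 over 30 pairs of lymphoid sums (26 over 0.1) and at -0.116 to 0.703 over all 45 pairs, myeloid sums included. DESeq2 1.42.0 was an alternative. On simulated data for NK against CD8 T cells over 11201 genes, 100 genes were changed by a log2 fold of 1 and 100 by 2. Of these, 73 and 97 were recovered, and 21 false calls came beside them. Color ratios used 0.5 added to each count and genes with at least 50 UMIs, with exact Poisson 95% intervals that cover counting error only. Depth per gate ranged from 428604 UMIs in myeloid cells of Kaede-green 1 to 64786100 in CD8 T cells of Kaede-red. Named were the 5 most abundant type I and 3 most abundant gamma-induced members, the 5 largest called changes each way per comparison of gates, the 3 largest per color comparison, the interferon receptors, *Ifng*, *Irf1* and *Socs1*, and the 3 largest called changes each way among pathway genes per comparison; other genes were named after their values were seen, and 1 gene of this rule is not reported here. Python 3.11.15, numpy 2.4.6, scipy 1.17.1 and pandas 2.3.3 were used.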

Additional observations from a re-analysis of the deposited data

Results flagged for a closer look

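The color ratio of the summed levels had unlike directions between gates, and the difference between gates was not tested, since there is a single Kaede-red library. For type I members the mean log2 ratio of Kaede-red over the Kaede-green libraries was -0.83 in NK cells, -0.46 in CD8 T cells and -0.31 in CD4 T cells, where Kaede-red lay below both Kaede-green libraries. It was 0.032 in Treg and 1.75 in myeloid cells, where Kaede-red lay above both. For gamma-induced members the ratio was -0.91 in NK cells, -0.71 in CD8 T cells, -0.26 in CD4 T cells and -0.20 in γδ T cells, against 0.063 in Treg and 1.65 in myeloid cells. The Treg ratios were small, and in the myeloid gate *Lyz2* was at 737, 2098 and 11811 CPM in Kaede-green 1, Kaede-green 2 and Kaede-red. Its part in the ratio was not tested. Median depth per cell also differed by color in unlike ways between lymphoid gates, as given above, and the part of depth was not tested.

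Cells that met no gate, which the comparisons left out, also held ISG transcripts. Their type I sum was 6627 CPM in Kaede-green 1 (3902 cells), 6368 CPM in Kaede-green 2 (3558 cells) and 4926 CPM in Kaede-red (2207 cells), between the NK and CD4 T sums of the same library. Their gamma-induced sum was 1067, 929 and 730 CPM in the same order. Kaede-red was again the lowest library for both.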

How the results depend on the processing

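With each comparison fitted on its own gates, 7 members were higher and 16 lower in NK than in CD8 T cells, 45 lower in CD8 T than in CD4 T cells, 3 higher and 26 lower in Treg, and 5 higher and 20 lower in γδ T than in CD4 T cells. More genes of any kind were called in these fits. The shares of all genes were 14.3% higher and 14.9% lower for NK over CD8 T cells and 14.3% lower for CD8 T over CD4 T cells. They were 14.6% and 15.2% for Treg and 9.35% and 6.99% for γδ T over CD4 T cells, so the higher NK count was near the background. With the 5 lymphoid gates in the fit (chosen after seeing the data) the counts were 5 and 15, 40, 1 and 19, and 3 and 14. Without the filter on low counts, 3 members were lower in myeloid cells, 7 lower in NK cells, 1 higher and 9 lower in Treg, and 1 higher and 6 lower in γδ T cells. The shares of all genes were 11.5%, 7.72%, 4.42% and 3.50%, and 3.23% and 2.43% in the same order. With library totals in place of TMM factors, 3 were lower in myeloid cells, the median of all genes for myeloid over lymphoid gates moved from -0.14 to -0.37, and the shares of all genes called were 17.2% higher and 32.9% lower against 21.6% and 22.3%. Without cells holding markers of other lineages, 2 were lower in myeloid cells. Without the replicate block 2 were lower in Treg, against 4.89% of all genes, and the block changed no other count by over 1.5 times. With cells of more than 1 gate kept, 3 were lower in CD8 T cells, 0 in Treg and 0 in γδ T cells. Leaving out each library in turn gave 17 to 28 higher and 0 to 14 lower in myeloid cells, 1 to 11 higher and 2 to 15 lower in NK cells, 1 to 43 lower in CD8 T cells, 0 to 2 higher and 0 to 28 lower in Treg, and 0 to 3 higher and 0 to 17 lower in γδ T cells, with the fewest lymphoid calls without a Kaede-green library and the most without Kaede-red. The cause was not tested. Shares of all genes are not given, here or above, beside the counts without a library, except for myeloid cells without Kaede-red. Nor are they given for the counts without cells of other lineages, with cells of more than 1 gate kept, or in the color alternatives. Between colors, a fold of 2 left 21 members in NK cells, 5 in CD8 T cells, 0 in CD4 T cells and 0 in Treg; keeping cells of more than 1 gate gave 19 in CD4 T cells and 2 in Treg; and leaving out a Kaede-green library gave 38 to 42 in NK cells, 18 to 28 in CD8 T cells, 5 to 15 in CD4 T cells, 1 to 2 lower in Treg and 0 to 1 higher in Treg. The log2 ratio of type I over gamma-induced sums became 3.28, 3.12, 2.68, 2.08, 2.08 and 2.79 (NK, CD8 T, CD4 T, Treg, γδ T and myeloid) without the most abundant member of each arm, and as a difference of medians 0.20, 0.011, -0.67, -1.59, -1.15 and 0.014, which turns its sign in 3 gates. It was 2.16 in γδ T cells with cells of more than 1 gate kept. For named genes, 597 values recomputed between gates kept their direction and their side of the threshold, 79 kept the direction and lost the call, and 0 changed direction; between colors 74 values moved by less than the spread and 6 by more. The share of type I UMIs in the 10% of cells with most of them stayed within the spread between libraries in each alternative. Depth limits the myeloid gate (157 cells) and rare members such as *Oas2*, and the single Kaede-red library leaves every color difference without a replicate.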
